A study of Homo sapiens with 18 samples.

Results

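DNA-RNA hybrids were mapped at the 8 human topoisomerase and tyrosyl-DNA phosphodiesterase genes, TOP1, TOP1MT, TOP2A, TOP2B, TOP3A, TOP3B, TDP1 and TDP2. The genes were listed by name, and all 8 were found among the 20163 nuclear protein-coding genes of the annotation. A gene window was the GENCODE gene body on hg19 with 5 kb added on each side, and a peak belonged to a gene when it overlapped the window by at least 1 bp. The data are DRIP-seq peak lists, in which restriction-digested genomic DNA is precipitated with the S9.6 antibody against hybrids. The cells were HCT116, a human colorectal carcinoma line, either left untreated (NT) or given 10 μM camptothecin (CPT) for 5 or 60 min. Per the paper, the cells were detached and washed between the end of CPT and lysis. The CPT lists therefore show DNA after a short interval without the drug. Each of the 3 conditions had 2 replicates, and each replicate had a DRIP library, a library whose DNA was digested with RNase H before the precipitation, and an input. RNase H removes the RNA strand of a hybrid. The 18 libraries gave 12 peak lists, 6 DRIP and 6 RNase H, each called against its input. The lists hold no expression values, so the identity of the line was not checked against marker genes.

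Topoisomerases relieve the torsion that transcription and replication build up, by cutting DNA and holding the cut end on a tyrosine of the enzyme. CPT traps the complex that nuclear TOP1 forms with cut DNA, the Top1cc, before the strand is rejoined. TOP1 and its mitochondrial paralog TOP1MT cut a single strand and let it swivel, TOP2A and TOP2B pass one duplex through another, and TOP3A and TOP3B pass single strands. TDP1 removes the peptide left on a DNA end by a trapped TOP1, and TDP2 does so for TOP2. Hybrids form where nascent RNA pairs with its template, often near promoters and ends of transcribed genes.

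The DRIP lists held 30314 (replicate 1) and 52967 (replicate 2) peaks in untreated cells, 33852 and 56543 after 5 min of CPT, and 41668 and 72879 after 60 min. The RNase H lists held 473 and 15790, 3439 and 50353, and 5392 and 67188 peaks in the same order. Replicate 2 gave the longer list in every condition, and its RNase H lists under CPT were nearly as long as its DRIP lists. The lists give neither reads per peak nor a scaling to the yeast spike-in, so the depth behind a peak is unknown and a longer list cannot be told apart from a deeper library. A peak in bulk DNA also does not tell more cells with a hybrid from more hybrid per cell. Values of both replicates are therefore given throughout, and a call needed both replicates.

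All 8 genes carried a DRIP peak in both replicates after 60 min of CPT, against 5 of 8 in NT and 5 of 8 at 5 min. The 5 genes present in NT and at 5 min were TOP1, TOP1MT, TOP2B, TOP3A and TOP3B. With only peaks of −log10 q of at least 3, the counts were 4, 4 and 7: TOP1 was not called in NT, TOP2B not at 5 min and TDP1 not at 60 min. Over all protein-coding genes, 44.8% were present in both replicates in NT, 48.8% at 5 min and 58.8% at 60 min. TOP2A and TDP2 had no DRIP peak in either NT list and a peak in both lists at 60 min, so that 2 of 8 windows were gained, where 6.85% of all genes were. No member window was gained at 5 min and none was lost at either time. Among all genes 4.6% were gained at 5 min, 2.16% were lost at 5 min and 1.54% were lost at 60 min. The windows had a median length of 59588 bp (26952 to 105666 bp), against 37219 bp over all genes, and a longer window has more room for a peak.

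The bases under peaks differed more between genes than these calls show. Summed over the 8 windows, DRIP peaks covered 15798 and 35317 bp in NT, 6779 and 42670 bp at 5 min, and 25278 and 76493 bp at 60 min. At 60 min both replicates were above their NT list, by 9480 and 41176 bp. Without the DRIP peaks that overlap a peak of the matching RNase H list these differences were 7492 and -4323 bp, with a mean of 1585 instead of 25328 bp, so in replicate 2 the added length lay under DRIP peaks that overlap an RNase H peak. At 5 min the differences were -9019 bp in replicate 1 and 7353 bp in replicate 2, so the direction was not shared. The number of peaks was 16 and 35 in NT, 13 and 56 at 5 min and 30 and 63 at 60 min, and the mean difference at 60 min was 5 instead of 21 peaks under the same exclusion. The groups overlapped in both measures, and with 2 lists against 2 an exact permutation test cannot go below p = 0.333. Per 10000 peaks of the whole list, the NT lists had 5.28 and 6.61 in the 8 windows, the 5 min lists 3.84 and 9.9, and the 60 min lists 7.2 and 8.64.

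**Figure D1:**
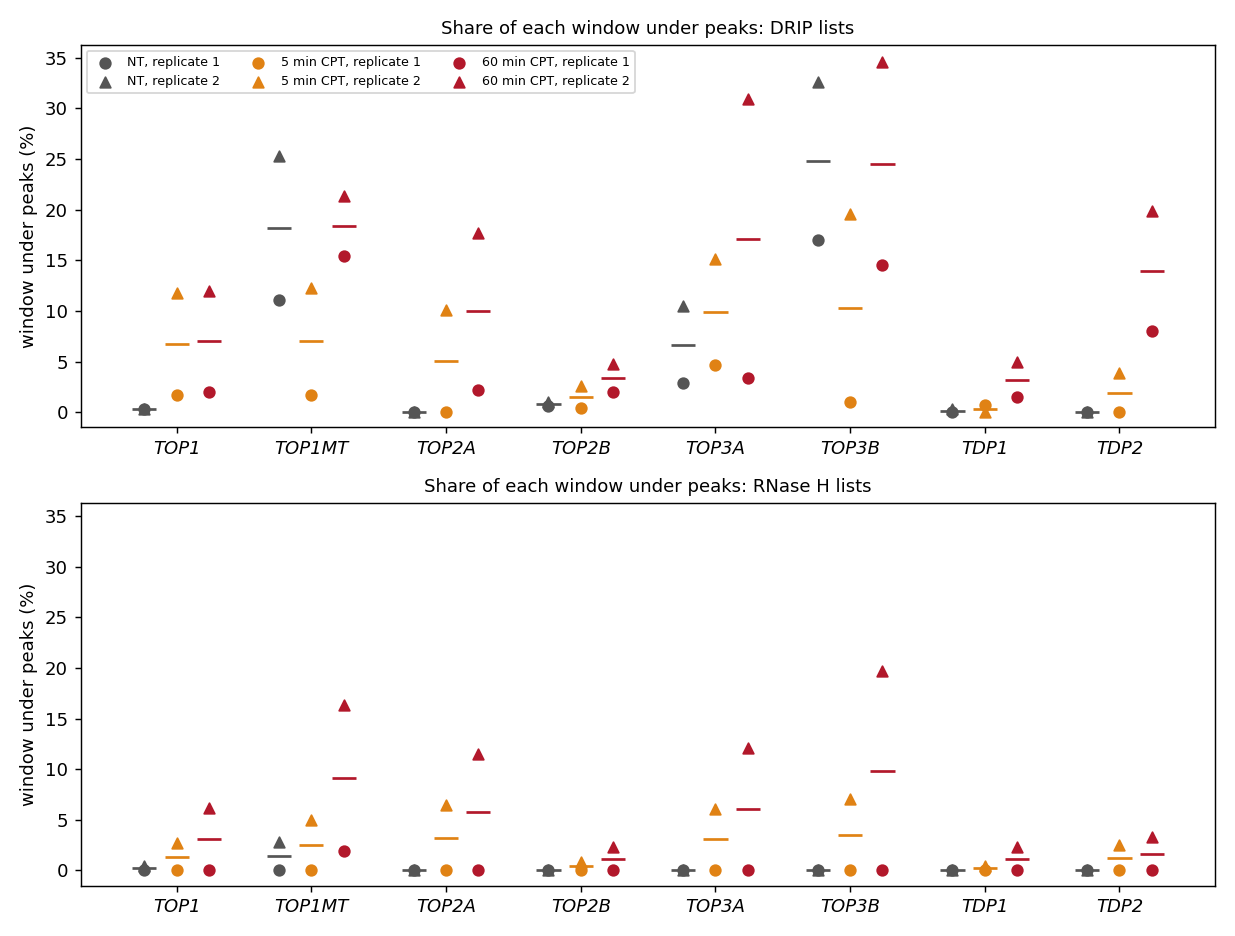
Percent of each gene window under peaks, in the DRIP lists (top) and the RNase H lists (bottom). Circles are replicate 1, triangles replicate 2 and short lines the mean of both. TOP3B and TOP1MT had the highest means in NT, and TOP2A and TDP2 lay at 0 in NT and above it in both lists at 60 min.

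By the mean share of the window under DRIP peaks, NT ran from TOP3B (24.8% ± 11.0, SD, n = 2) and TOP1MT (18.2% ± 10.1) through TOP3A (6.65% ± 5.38), TOP2B (0.815% ± 0.233), TOP1 (0.347% ± 0.028) and TDP1 (0.163% ± 0.231) to TOP2A and TDP2 at 0. The values of TOP3B and TOP1MT overlapped. TOP3A, TOP2B, TOP1 and TDP1 each lay below the range of the gene before, by little for TOP3A (highest value 10.5%, against 11.1% as the lowest of TOP1MT) and for TDP1 (0.326% against 0.327% in TOP1). TDP1 was at 0 in replicate 1, so TOP2A and TDP2 were not separated from it. This order was not tested. At 60 min the order was TOP3B (24.5% ± 14.2), TOP1MT (18.4% ± 4.16), TOP3A (17.2% ± 19.5), TDP2 (14.0% ± 8.34), TOP2A (9.96% ± 11.0), TOP1 (6.99% ± 7.07), TOP2B (3.39% ± 1.91) and TDP1 (3.19% ± 2.45). The ranges of all neighbours in that order overlapped.

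**Figure D2:**
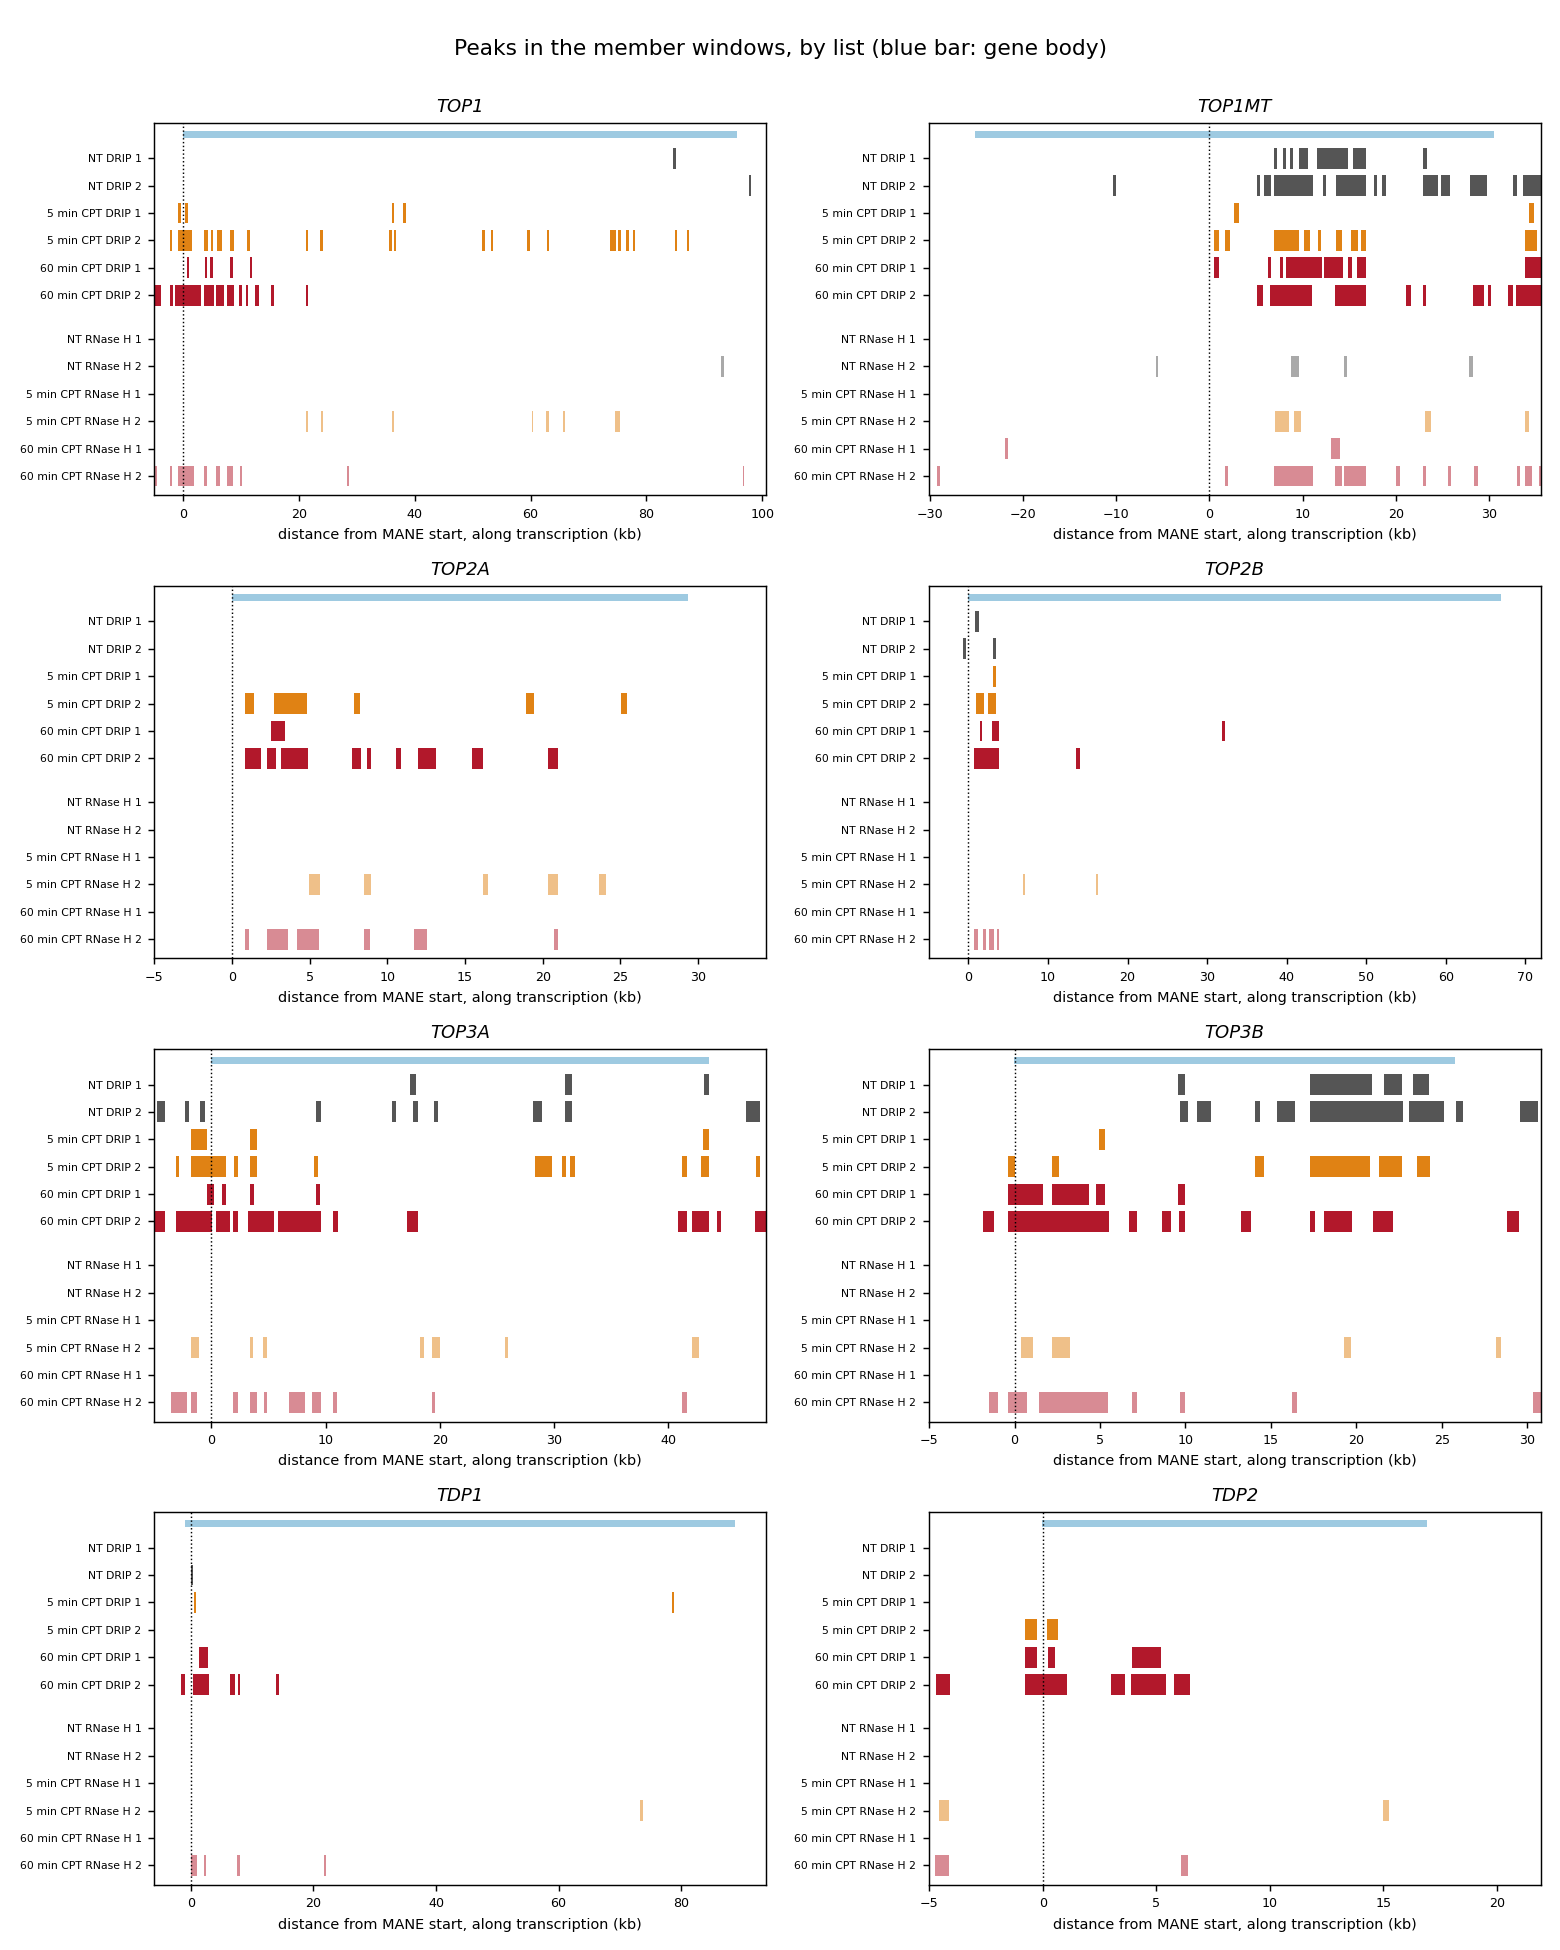
Every peak of the 12 lists in the 8 gene windows, drawn to scale by distance from the start of the MANE transcript along the direction of transcription (kb). Lanes are lists, solid for DRIP and pale for RNase H, the blue bar is the gene body and the dotted line the start. In TOP1 and TOP2A the peaks of both 60 min DRIP lists lie within 25 kb of the start, and in TOP3B NT peaks sit between 17286 and 25126 bp.

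TOP1, the enzyme that CPT traps, lies at chr20:39657462-39753127 (hg19, plus strand, 21 exons in the MANE transcript). Positions within a gene are given in bp from the start of its MANE transcript along the direction of transcription, and negative positions lie upstream. TOP1 had a single DRIP peak in each NT list, both far from the start, at 84648 to 85035 bp in replicate 1 and 97746 to 98091 bp, past the gene end, in replicate 2. The covered length was 388 and 346 bp in NT, 1749 and 12485 bp at 5 min, and 2105 and 12668 bp at 60 min, and all 4 CPT lists lay above both NT lists. In replicate 1 the first CPT peak began at -841 bp at 5 min and at 634 bp at 60 min. In replicate 2 it began at -2325 bp at 5 min and at -4948 bp at 60 min. A region from -1412 to 3080 bp, over exons 1 and 2, had a peak in all 4 CPT lists and in neither NT list. Its strongest peak stood at percentile 67.2 and 96.7 of its list at 5 min and 9.5 and 96.9 at 60 min, where percentile 100 is the list's highest fold enrichment over input. Regions at 3656 to 5409 bp and 7658 to 8742 bp, both in an intron, had a peak in both 60 min lists and in the 5 min list of replicate 2, and an RNase H peak at 60 min in replicate 2. A region at 36095 to 36681 bp was called in both 5 min lists and in neither the NT nor the 60 min lists, with an RNase H peak at 5 min in replicate 2. At 60 min the last DRIP peak of either replicate ended at 21504 bp, whereas the 5 min list of replicate 2 had peaks to 87312 bp.

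The RNase H lists of TOP1 covered 0 and 445 bp in NT, 0 and 2889 bp at 5 min, and 0 and 6509 bp at 60 min. In replicate 2 at 60 min, the RNase H list held a peak from -841 to 1836 bp under the promoter peak. The RNase H partners of the other 3 CPT lists had no peak there. The promoter is shown because DRIP peaks lay over the start in 2 lists, the replicate 2 lists of both CPT times. The 250 bases upstream, chr20:39657212-39657461 on the plus strand, hold 28 CG dinucleotides (capitals), and 22.3% of all protein-coding promoters hold at least as many (median 18). CG reads the same on both strands, and neighbouring CGs do not overlap.
TOP1 promoter: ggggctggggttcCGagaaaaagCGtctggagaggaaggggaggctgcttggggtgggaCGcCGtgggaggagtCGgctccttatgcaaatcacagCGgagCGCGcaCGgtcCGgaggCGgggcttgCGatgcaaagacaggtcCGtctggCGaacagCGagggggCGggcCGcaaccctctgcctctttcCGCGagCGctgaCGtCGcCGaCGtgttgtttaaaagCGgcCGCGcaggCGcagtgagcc
The first kb of the transcript had a GC content of 69.6% and a GC skew, (G - C)/(G + C), of -0.141, against a median skew of 0.045 over all genes. Positive skew is a sequence property often described at hybrid-prone starts.

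Several TOP1 peaks ended at the same base in different lists, some of them a DRIP list and the RNase H list of the same DNA. The peaks of both 5 min DRIP lists and of the 60 min RNase H list of replicate 2 began at -841 bp, at an EcoRI site. The peaks at 3656 bp began at a BsrGI site in lists of replicate 2 only. These were the DRIP lists of both CPT times and the 60 min RNase H list. The bases around both edges are shown with the enzyme's 6-base site in capitals, plus strand, chr20:39656593-39656652 and chr20:39661090-39661149.
TOP1 edge at -841 bp, EcoRI: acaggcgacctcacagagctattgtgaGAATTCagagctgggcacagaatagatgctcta
TOP1 edge at 3656 bp, BsrGI: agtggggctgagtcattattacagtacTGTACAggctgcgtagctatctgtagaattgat

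TOP2A, the isoform of dividing cells that decatenates chromosomes, lies at chr17:38544777-38574148 (minus strand, 35 exons). It had no DRIP peak in either NT list. It covered 0 and 3985 bp at 5 min and 857 and 6984 bp at 60 min. The only region shared by both 60 min lists ran from 2276 to 4924 bp, over exons 5 and 6, with top peaks at percentile 65.7 and 82.9, and the 5 min list of replicate 2 had a peak of percentile 82.3 there. The 60 min RNase H list of replicate 2 had 2 peaks in the same region. RNase H lists of replicate 2 covered 2529 bp at 5 min and 4518 bp at 60 min, and those of replicate 1 covered 0 bp. Of the 15 DRIP peaks of TOP2A, 6 were met by a peak of the matching RNase H list. The peaks nearest the start began at 857 bp in both replicate 2 CPT DRIP lists and in the 60 min RNase H list of replicate 2. This base lay at a BsrGI site, shown in capitals within chr17:38573260-38573319 (plus strand).
TOP2A edge at 857 bp, BsrGI: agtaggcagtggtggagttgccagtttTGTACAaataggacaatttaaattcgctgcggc

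TOP2B, the isoform that non-dividing cells also use and that acts at promoters of regulated genes, lies at chr3:25639469-25706400 (minus strand, 36 exons). Its covered length was low everywhere, with 500 and 754 bp in NT, 340 and 2013 bp at 5 min, and 1568 and 3644 bp at 60 min. Both 60 min lists lay above both NT lists, and the 5 min lists lay on either side. TOP2B held the only region of the 8 genes with a peak in all 6 DRIP lists, an intronic stretch from 738 to 3902 bp. Its NT peaks lay apart, at 848 to 1347 bp in replicate 1 and 3066 to 3485 bp in replicate 2. No base of the stretch was therefore under a peak in all 6 lists. The percentile of the top peak in the stretch was 60.8 and 5.1 in NT, 34.8 and 59.5 at 5 min, and 83.1 and 78.2 at 60 min. The RNase H lists of TOP2B were at 0 bp except for 653 bp at 5 min and 1798 bp at 60 min in replicate 2, the latter in 4 peaks within that stretch.

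TOP3A, which acts with BLM, RMI1 and RMI2 to dissolve joined DNA molecules and also works in mitochondria, lies at chr17:18174742-18218321 (minus strand, 19 exons). It covered 1525 and 5603 bp in NT, 2489 and 8105 bp at 5 min, and 1805 and 16573 bp at 60 min. Each CPT list was above the NT list of its replicate, and the conditions overlapped. A region at 3238 to 5461 bp had a peak in all 4 CPT lists and neither NT list, and RNase H peaks in replicate 2 at both CPT times. A region at 30932 to 31592 bp had a peak in both NT lists and neither 60 min list, and one at 17405 to 18063 bp had a peak in both NT lists and neither 5 min list. The start region, -3140 to 1596 bp, was covered in all 4 CPT lists and in the NT list of replicate 2. This start is shared: SMCR8, on the opposite strand, begins 299 bp away, and the libraries do not record strand. The RNase H lists of replicate 1 were at 0 bp, and those of replicate 2 covered 0 bp in NT, 3278 bp at 5 min and 6455 bp at 60 min. The promoter, over whose start 3 DRIP lists had a peak, spans chr17:18218309-18218558 and is given on the minus strand with its 19 CG dinucleotides in capitals. At least as many were found in 48.5% of promoters.
TOP3A promoter: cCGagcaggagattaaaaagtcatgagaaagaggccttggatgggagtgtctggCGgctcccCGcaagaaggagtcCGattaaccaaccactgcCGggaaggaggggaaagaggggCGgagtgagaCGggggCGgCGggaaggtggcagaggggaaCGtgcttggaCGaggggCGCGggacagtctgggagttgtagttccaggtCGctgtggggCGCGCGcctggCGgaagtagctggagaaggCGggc

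TOP3B, which also acts on RNA and partners with TDRD3, lies at chr22:22311397-22337210 (minus strand, 18 exons). Its covered length was 6106 and 11661 bp in NT, 368 and 6997 bp at 5 min, and 5193 and 12381 bp at 60 min. In both replicates the 5 min list was below NT, with differences of -5738 and -4664 bp, and at 60 min the differences were -913 and 720 bp. The similar totals in NT and at 60 min came from different parts of the gene. In NT the strong peaks lay at 17286 to 22719 bp (exons 9 to 14), at percentile 87.7 and 97.1, and at 23083 to 25126 bp (exons 15 to 17), at percentile 73.6 and 96.5. At 60 min the second region had no peak, and the first had none in replicate 1 and peaks up to percentile 59.0 in replicate 2. A start region from -375 to 5502 bp, with exon 1, had no NT peak and a peak in all 4 CPT lists. Its top peaks stood at percentile 58.9 and 77.8 at 5 min and 94.5 and 99.1 at 60 min. The 5 min replicates shared no base in it. The peak of replicate 1 lay at 4941 to 5308 bp, and those of replicate 2 at -375 to 7 bp and 2186 to 2602 bp.

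In replicate 2 the TOP3B start region also had RNase H peaks at both CPT times, 1 of them 4033 bp wide and at percentile 99.5 of the 60 min RNase H list. Replicate 1 had no RNase H peak in the window. PPM1F-AS1, a non-coding RNA on the opposite strand, overlaps TOP3B from the gene end up to the downstream border of the start region. TOP3B is the gene with the largest share of its window under the union of DRIP peaks, 58.2%. Its promoter, under a DRIP peak at the start in 3 lists, spans chr22:22337185-22337434 and is given on the minus strand with 22 CG dinucleotides in capitals, a number that 39.3% of promoters reach.
TOP3B promoter: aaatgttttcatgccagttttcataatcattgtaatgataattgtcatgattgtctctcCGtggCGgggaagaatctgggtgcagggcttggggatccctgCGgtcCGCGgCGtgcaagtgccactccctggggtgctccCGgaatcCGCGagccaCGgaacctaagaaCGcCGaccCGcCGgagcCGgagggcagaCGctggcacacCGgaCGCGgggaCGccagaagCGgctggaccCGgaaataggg
One border of each of these regions was a restriction site. The start region ended upstream at -375 bp in 3 DRIP lists, at an EcoRI site (chr22:22337528-22337587). The NT region began at 17286 bp in 4 DRIP lists, both of NT and the replicate 2 lists of both CPT times, at an SspI site (chr22:22319869-22319928). Both are shown on the plus strand with the site in capitals.
TOP3B edge at -375 bp, EcoRI: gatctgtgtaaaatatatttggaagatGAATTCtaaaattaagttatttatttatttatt
TOP3B edge at 17286 bp, SspI: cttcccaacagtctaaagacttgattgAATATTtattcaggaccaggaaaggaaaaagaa

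TDP1, which frees DNA ends from trapped TOP1, lies at chr14:90421283-90511108 (plus strand, 17 exons). It covered 0 and 325 bp in NT, 702 and 0 bp at 5 min, and 1460 and 4916 bp at 60 min, so that both 60 min lists lay above the other 4. The region from 406 to 2930 bp, over exon 2, had a peak in both 60 min lists (percentile 37.7 and 77.6), none in NT and 1 of percentile 11.6 in the 5 min list of replicate 1. The 60 min RNase H list of replicate 2 had peaks in the same region and covered 2270 bp of the window, and the other RNase H lists covered 472 bp or less. EFCAB11, on the opposite strand, starts 1150 bp away. Under peaks the window had a GC content of 50.3%, against 41.8% outside them, the widest gap of the 8 genes.

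TDP2, which frees ends from trapped TOP2, lies at chr6:24650207-24667158 (minus strand, 7 exons). It had no DRIP peak in NT, covered 0 and 1048 bp at 5 min, and 2173 and 5352 bp at 60 min. Both 60 min lists had peaks in a region from -806 to 1044 bp, over exons 1 and 2 (percentile 85.0 and 81.7), and in one from 3873 to 5407 bp (percentile 47.7 and 87.9). Neither region had a peak in any RNase H list, and the only RNase H coverage of the window was 689 bp at 5 min and 901 bp at 60 min in replicate 2. ACOT13 starts 136 bp from the TDP2 start on the opposite strand, and again strand is not recorded. The upstream edge at -806 bp was the same base in the 5 min DRIP list of replicate 2 and both 60 min DRIP lists, an XbaI site within chr6:24667902-24667961 (plus strand).
TDP2 edge at -806 bp, XbaI: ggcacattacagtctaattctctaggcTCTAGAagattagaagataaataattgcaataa
The 250 bases upstream of TDP2 hold 31 CG dinucleotides, the most of the 8 genes, and 15.2% of promoters hold as many or more.

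TOP1MT, the mitochondrial type IB enzyme, lies at chr8:144386554-144442149 (minus strand), and its MANE transcript of 14 exons starts 25099 bp inside the annotated gene. It covered 7279 and 16628 bp in NT, 1131 and 8037 bp at 5 min, and 10117 and 13975 bp at 60 min. The 5 min list was below NT in both replicates, with differences of -6148 and -8591 bp, and the 60 min list was above NT in replicate 1 and below it in replicate 2. The widest of its 3 regions, 10567 bp, ran from 6233 to 16799 bp past the MANE start, over exons 4 to 9. It had peaks in 5 of the 6 DRIP lists and none in the 5 min list of replicate 1, with top percentiles of 93.5 and 97.1 in NT, 91.3 in replicate 2 at 5 min, and 91.9 and 93.9 at 60 min. Its far edge at 16799 bp was shared to the base by 6 lists, the most of any edge, and lay at a BsrGI site. A region at 32865 to 36392 bp lay past the gene end and partly over ZNF696, a gene on the opposite strand. It also had peaks in 5 of 6 DRIP lists, all but NT replicate 1. Its percentile was 80.7 in NT, 44.5 and 26.7 at 5 min, and 65.4 and 85.8 at 60 min. A region at 22853 to 24468 bp had a peak in both NT lists and neither 5 min list. TOP1MT was the only one of the 8 genes with RNase H peaks in both 60 min lists (1278 and 10695 bp), a state that 13% of all genes shared. In NT, RNase H peaks were seen only in replicate 2, 4 in TOP1MT, 2 of them inside the 10567-bp region, and 1 in TOP1.

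Regions were formed from DRIP peaks that overlapped between both replicates of a condition, merged over the conditions. The 8 genes had 24 of them, and sites shared only by lists of different conditions were left out. At 5 min, 4 of 24 had a peak in both CPT lists and neither NT list, beside 13.6% of 28518 such regions across the genome, and at 60 min 9 of 24 did, beside 29.7%. Losses numbered 3 of 24 at 5 min, beside 12.6%, and 2 of 24 at 60 min, beside 12.5%. The regions gained at both times were the start regions of TOP1 and TOP3B and the 3238 to 5461 bp region of TOP3A. A call needed a peak of each list in the merged region, not at the same bases. In the TOP3B region the 5 min peaks did not overlap between replicates, so no single site there was gained at 5 min. The regions called lost at 60 min were those of TOP3A at 30932 bp and TOP3B at 23083 bp, both more than 20 kb into the gene.

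This position was then described for all 8 genes with a start zone from 5 kb upstream to 10 kb downstream of the MANE start, a choice made after the peaks were seen and so given without a test. In NT the start zones held 15.2% and 20.8% of the covered bases (2405 and 7355 bp). They held 66.3% and 48.1% at 5 min (4494 and 20537 bp), and 68.8% and 67.2% at 60 min (17386 and 51436 bp). Every CPT list had a larger share than both NT lists. Outside the zones the covered length was 13393 and 27962 bp in NT, 2285 and 22133 bp at 5 min, and 7892 and 25057 bp at 60 min, below the NT list of the same replicate in each case. Over all protein-coding genes, where overlapping windows count more than once, the zones held 49.2% in both NT lists, 55.7% and 56.7% at 5 min, and 66.6% and 65.9% at 60 min. The pooled NT share rested on TOP1MT and TOP3B, which held 85.7% and 85.2% of the covered bases outside the zones in NT. Without them, an exclusion made after the values were seen, the other 6 genes held 20.7% and 41.0% of their covered bases in the start zone in NT, 67.1% and 57.7% at 5 min, and 92.2% and 78.8% at 60 min. In TOP2B all NT coverage lay in the zone, as did that of TDP1.

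**Figure D3:**
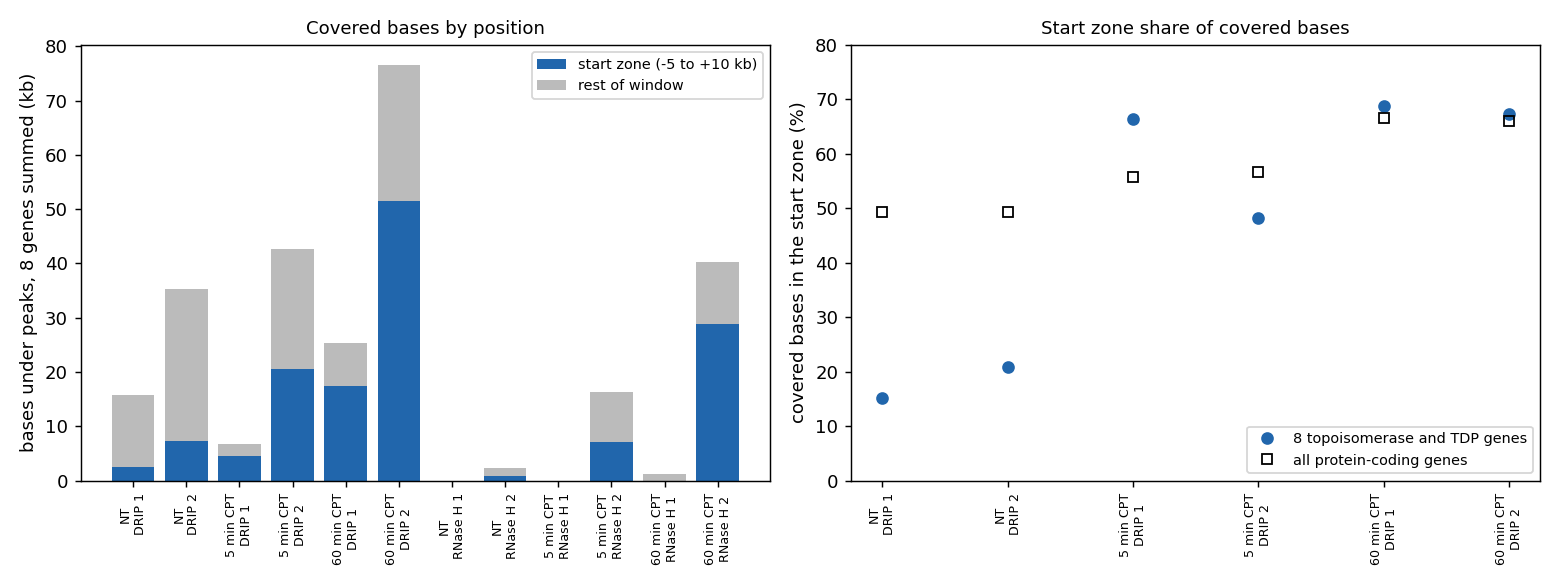
Left, bases under peaks summed over the 8 genes in each list (kb), split into the start zone and the rest of the window. Right, the start zone share of covered bases in the 6 DRIP lists for the 8 genes (filled) and all protein-coding genes (open squares). The members moved from 15.2% and 20.8% in NT to 68.8% and 67.2% at 60 min.

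TOP1MT, TOP2B and TOP3B had a start zone peak in both NT lists, 3 of 8 against 28.8% of all genes. At 5 min 5 of 8 did, TOP1 and TOP3A being the others, against 32.4%, and at 60 min 8 of 8, against 47.8%. The start zone of TOP1 was gained at 5 min, 1 of 8 beside 5.33% of genes. Those of TOP1, TOP2A and TDP2 were gained at 60 min, 3 of 8 beside 10.7%. At 60 min the start zone of TOP3B was covered for 5193 and 7849 bp, against 447 and 333 bp in NT. That of TOP1 was covered for 1660 and 10786 bp, against 0 bp in both NT lists. RNase H lists moved with this pattern in replicate 2: the start zones held 822 bp in NT, 7168 bp at 5 min and 28889 bp at 60 min, or 71.9% of the RNase H coverage of the 8 genes at 60 min. In replicate 1 they held 0 bp at all 3 times. The part of RNase H-resistant signal in the start zone gains was not tested, but without the DRIP peaks that overlap a peak of the matching RNase H list, the mean gain at 60 min was 10012 bp instead of 29531 bp.

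RNase H digestion left fewer covered bases in the 8 windows in all 6 pairs. The RNase H lists covered 0 and 2259 bp in NT, 0 and 16300 bp at 5 min, and 1278 and 40184 bp at 60 min, a mean of 10004 bp ± 16042 (SD, n = 6) against 33723 bp ± 24619 in the DRIP lists. The ranges overlapped, because the 60 min RNase H list of replicate 2 exceeded 4 of the 6 DRIP lists. Gene by gene, the DRIP list covered more than its RNase H partner in 6 of 6 pairs for TOP1MT, TOP2B, TOP3A and TOP3B, in 5 of 6 for TOP1, in 4 of 6 for TDP1 and in 3 of 6 for TOP2A and TDP2, where the other 3 pairs were tied at 0. A two-sided exact permutation test of 6 against 6 lists, run on all 17287 genes with a peak, gave p = 0.0368 for TOP3B and p = 0.0455 for TOP1MT, and 0.0866 to 0.621 for the other 6. After Benjamini-Hochberg adjustment of the exact permutation p over all genes these were 0.239 and 0.252, and no gene of the 17287 passed 0.05 (0% called, smallest adjusted p = 0.221), although 3277 genes had an unadjusted p under 0.05.

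Of the DRIP peaks in the 8 windows, 0% and 8.6% were met by a peak of the matching RNase H list in NT, 0% and 21.4% at 5 min, and 3.3% and 54.0% at 60 min. Over whole lists the shares were 0.45% and 10.8%, 2.79% and 33.0%, and 1.7% and 49.0%. The met share followed the length of the RNase H list. Among genes it ran from 1 of 11 DRIP peaks in TOP2B to 13 of 43 in TOP1 and 6 of 15 in TOP2A.

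The highest peak of each gene was placed within its own list by fold enrichment. TOP3B reached percentile 87.7 and 97.1 in NT, 58.9 and 94.6 at 5 min, and 94.5 and 99.1 at 60 min. TOP1 went from 4.2 and 58.0 in NT to 67.2 and 96.7 at 5 min and 75.4 and 96.9 at 60 min, and within each replicate both CPT values were above NT. With every DRIP list cut to its 30314 peaks of highest fold enrichment, TOP1 stood at 4.2 and 26.7 in NT, 63.4 and 93.8 at 5 min, and 66.2 and 92.5 at 60 min. TOP1MT stayed at 91.3 or higher except in the 5 min list of replicate 1, at 55.0. TDP1 had its highest peak at 23.6 in NT replicate 2, 12.9 at 5 min in replicate 1, and 37.7 and 78.9 at 60 min. Ranked by the p-value of the peak instead, TOP1 stood at 0.5 and 48.9 in NT and at 69.4 to 97.2 under CPT.

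**Figure D4:**
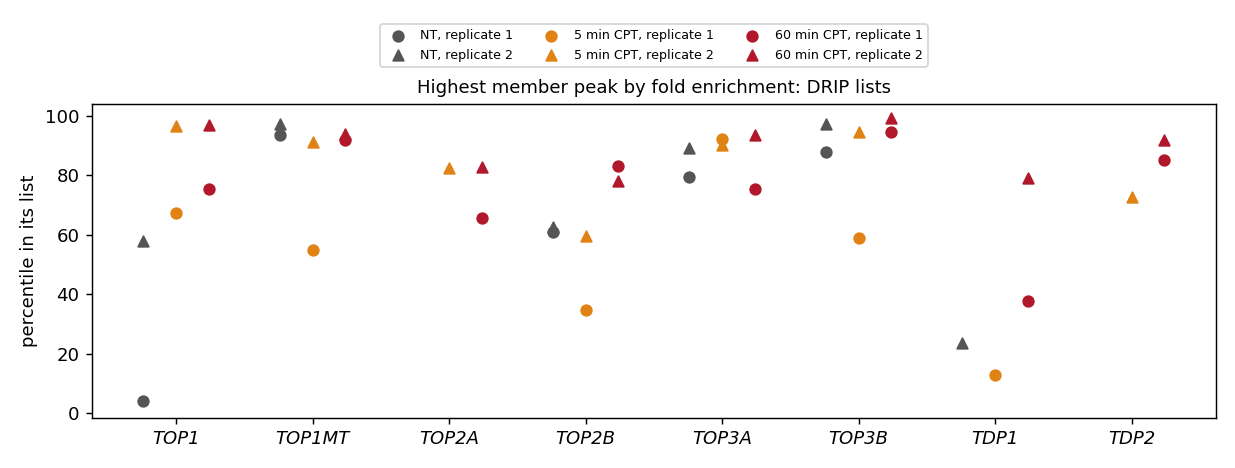
Percentile, within its own DRIP list, of the highest peak of each gene by fold enrichment over input (100 is the highest peak of the list). Circles are replicate 1, triangles replicate 2, and a missing mark means no peak. TOP1 stood above both NT values in every CPT list, and TOP3B reached percentile 99.1 at 60 min.

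The peaks were mostly intronic. Of 213 DRIP peaks, 157 (73.7%) had their midpoint in the gene body outside every exon of the gene, counted as intron. Another 20 had it in an exon of any transcript, 21 upstream and 15 downstream of the gene. The 93 RNase H peaks had a like split, with 73.1% in introns. Peak widths had medians of 437 to 680 bp across the DRIP lists, and the widest was 6717 bp, past the TOP3A gene end and over MIEF2. Genomic DNA had been cut with HindIII (AAGCTT), EcoRI (GAATTC), XbaI (TCTAGA), SspI (AATATT) and BsrGI (TGTACA), all of which read the same on both strands. Of 426 DRIP peak edges in the windows, 30.3% lay at such a site, within 1 base, against 1.3% of the bases of the windows. The share was 30.2% over the edges of all DRIP lists, and 25.8% for the RNase H peaks of the 8 windows. All 38 edges that at least 2 lists shared to the base were at a site. Peak borders at these genes thus often coincided with the end of a restriction fragment. The number of sites per window ran from 29 in TOP3B to 211 in TOP1, with median fragments of 1041 and 382 bp.

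Of 24 partner genes, which act with these enzymes or repair the protein-DNA adducts they leave (among them TDRD3, BLM, PARP1, XRCC1, MUS81 and MRE11), 16 had a DRIP peak in both replicates in NT, 20 at 5 min and 23 at 60 min. Only BLM, the helicase of the TOP3A complex, was gained, at both times, and none was lost. Over all genes 44.8%, 48.8% and 58.8% were present, and 4.6% and 6.85% gained, so the single partner gained is no larger a share than the background. BLM covered 0 bp in both NT lists, 468 and 452 bp at 5 min, and 820 and 3622 bp at 60 min. FMR1 was the partner without a call at 60 min.

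The genes whose share of covered window followed each member most closely over the 12 lists were VAPA and GPATCH2L for TOP1 (Pearson r = 0.993 and 0.992), TYW5 and CLINT1 for TOP2A (0.998 and 0.996), and ORC1 and POLG2 for TOP2B (0.991 and 0.99). They were SOD2 and NCOA2 for TOP3A (0.997 and 0.993), LZTR1 and ARRDC1 for TOP3B (0.994 and 0.993), and FZD7 and TFCP2L1 for TDP1 (0.992 and 0.991). For TDP2 they were NMU and ZNF587 (0.996 and 0.995), and for TOP1MT CRIP1 and the gene with the identifier ENSG00000257341 (0.991 each). The 12 points share the length of their lists, and the highest coefficients over all genes with a peak are printed, so these are descriptions only.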

How the data were processed

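HCT116 cells were profiled by DRIP-seq in 2 replicates per condition. Per the methods, the authors used Cutadapt for trimming and BWA for alignment to hg19, took out duplicates and blacklisted regions, and called peaks per library against its input with MACS2 (options not given in the sources used here). P-values measure only the spread between these lists. The deposited lists give each peak's fold enrichment over input, a ratio, and the −log10 p and q that the authors' caller wrote, with every −log10 q at or above 1.3. Depth is unknown from the lists.

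Peaks were assigned to GENCODE 44 genes lifted to GRCh37, with 5 kb flanks and an overlap of at least 1 bp, in Python 3.11.15 with NumPy 2.4.6 and pandas 2.3.3. Present meant a peak in both replicates of a condition, absent none in either, and gained or lost a change between these. Genes were tested by exact permutation of covered bases, 6 DRIP against 6 RNase H lists. Sums over the 8 genes were given without a p. The code was run on simulated lists over 20163 genes, with noise-free peaks placed only in genes whose windows met no other. All 200 simulated gains at each time and all 200 simulated DRIP excesses were recovered. Each excess had a peak in all 6 DRIP lists and in no RNase H list, so the recovery checks the counting. It does not show power on the real lists, where no gene passed adjustment. The members and lists were chosen with earlier results of these data known. Sequences were read from GRCh37. Named genes were the 8 members, genes overlapping their windows, the 2 closest patterns per member, and partners changing between present and absent. Alternatives covered peak thresholds, equal list lengths, windows, merging, RNase H filtering and replicates.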

Additional observations from a re-analysis of the deposited data

How the results depend on the processing

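Of 154 recomputed values, 144 were counted as unchanged, which did not require a similar size. Differences in peaks or covered bases had to keep direction and threshold side, and counts to stay within 1.5 times the printed one. Ranks, met shares and start zone values had to stay within their SD of the main value. With 2 lists against 2, the permutation p cannot go below 0.333, so the threshold side could not change. Under RNase H filtering, 60 min differences fell from 25328 to 1585 bp and from 21 to 5 peaks, and still counted. So did a start zone drop from 29531 to 10012 bp. Among the 144, members present with −log10 q of at least 3 were 4 in NT, 4 at 5 min and 7 at 60 min. Without flanks 4 members were present in NT, and with lists of equal length 3 (TDP1 added) were gained at 60 min. The covered length at 5 min minus NT (-833 bp) had no stable direction: it was 83.5 bp with peaks up to 1000 bp apart merged, and ran from -9019 to 7353 bp when a replicate was left out. The peak count at 5 min minus NT ran from -3 to 21 when a replicate was left out, and the cause was not tested. Leaving out a replicate, where a call needs a single list, gave 1 to 2 members gained at 5 min instead of 0, and 0 to 1 lost. With 10 kb flanks, 1 member was gained at 60 min instead of 2 (TOP2A was not). With lists of equal length the DRIP minus RNase H difference was 25184 bp and 5 members (7754 genes) passed the adjusted test. That setting cut every RNase H list to 473 peaks and every DRIP list to 30314, so it fixes the contrast by its construction. With the replicate block, which pairs each DRIP list with the RNase H list of the same DNA, the difference stayed 23719 bp, positive in 6 of 6 pairs, and no member passed the adjusted test. Replicate numbers were not stated to link treatments. The deviations of same-numbered DRIP lists correlated at 0.54 to 0.66 over 17287 gene windows, which holds for list length too. The start zone difference at 5 min was 1152 bp with a zone to 20 kb, against 7636 bp, and 8439 bp with a zone to 5 kb. At 60 min those values were 28807 and 22414 bp against 29531 bp. Without read counts, a missing peak does not show a missing hybrid.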
